A study of Arabidopsis thaliana with 39 samples.

Results

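IMA1 (AT1G47400) and IMA2 (AT1G47395) encode IRON MAN peptides of Arabidopsis thaliana. They were followed in root RNA on the 2 array rows that name 1 of these genes and no other. The table holds 28501 rows, of which 16746 name exactly 1 gene. In the RefSeq annotation the genes lie next to each other on chromosome 1.

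IRON MAN peptides are short, rich in aspartate near their C-terminus, and act in the signalling of iron deficiency. They bind the ubiquitin ligase BRUTUS (BTS) and its relatives BTSL1 and BTSL2, which otherwise mark a group of bHLH transcription factors for destruction. Those factors switch on the iron uptake programme, and the peptide genes themselves are among the transcripts known to rise when a root lacks iron. Phosphate bears on this system because it binds iron and because a lack of phosphate changes how much iron roots take in.

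Wild-type Columbia-0 seedlings first spent 10 days on medium holding 1 mM phosphate. Their roots gave 13 groups of 3 arrays each. One group was taken at time 0. The other groups were taken 3, 6 and 9 h after transfer to full medium, to medium without phosphate, to medium without iron, or to medium without both. Time 0 and full medium are the controls, and no transgene or mutant was used. The replicates are numbered 1 to 3, and nothing in the labels says that they came from separate cultures, so a p-value here measures only the spread between these arrays. In whole roots, fewer cells of a type and less RNA per cell cannot be told apart.

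The median of an array was 3.34 to 3.45 in the deposited values, which are on a log2 scale. The log base is inferred from the range of the values and every fold depends on it. Of the tissue markers, 1 of 7 root genes had a row, EXP7, an expansin of root hairs, at 4.14 to 6.18. Of 5 shoot genes 2 had one, RCA at 5.68 to 8.50 and LHCB4.1 at 4.02 to 6.86, so transcripts of photosynthetic genes were measured in these root samples. Both markers of phloem companion cells were on no row naming them alone. The arrays of replicate number 3 stood apart: on the first principal component, with 21.3% of the variance, all 13 scored between 10.9 and 55.4, and those of numbers 1 and 2 between -36.8 and -4.30. Each number holds 1 array of every group. Values within numbers are also given for some of the results, mainly those that include the no-iron arrays at 9 h.

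Both peptide genes gave dim rows. IMA1 lay between 0.83 and 2.09 with a median of 1.23, and it was below the first quartile of its array in 38 of 39 arrays. IMA2 lay between 0.92 and 3.54 with a median of 1.49, below the first quartile in 27 arrays and below the array median in 38. Within groups IMA2 had a standard deviation of 0.41 against 0.26 for IMA1, and a median of 0.23 over all rows. The spread of IMA2 was at percentile 89.9 of the rows, and its mean at percentile 21.4. Differences at such levels are measured near the bottom of the scale, where a change in transcript can be understated or can come from spread between arrays.

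IMA2 was lowest before the transfer. At time 0 its 3 arrays read 0.92, 0.98 and 1.27, a mean of 1.06 ± 0.19 (SD, n = 3). Full medium gave 1.66, 1.78 and 1.52 at 3 h, then 1.00, 2.35 and 1.04 at 6 h and 1.75, 1.24 and 1.53 at 9 h. The 3 h arrays all exceeded time 0, while at 6 h replicate 2 alone was high and the other arrays lay within the time 0 range. A full separation of 3 arrays from 3, here or below, gives an exact two-sided permutation p of 0.1, the smallest possible. The share of all rows so separated was not counted. Against time 0 the means in full medium were higher by 0.60 at 3 h (SE 0.31), 0.41 at 6 h and 0.45 at 9 h. None of the 3 differences passed (limma adjusted p = 0.567, 0.800 and 0.708), in comparisons that called 0.575%, 1.15% and 1.27% of all rows. Without replicate 2 of full medium the 6 h difference was -0.03.

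In medium without phosphate IMA2 stayed within the range of the controls, 0.92 to 2.35. So did every array without iron or without both, except replicate 1 without iron at 9 h (3.54). Its arrays read 1.42, 1.14 and 1.07 at 3 h, 1.55, 1.86 and 1.5 at 6 h, and 1.41, 1.16 and 1.35 at 9 h. At 3 h all were below the full-medium arrays of that time. The differences from full medium were -0.45, 0.17 and -0.20 at 3, 6 and 9 h (SE 0.31 each), and 0% of rows were called at 3 and 6 h and 0.00702% at 9 h. The 95% intervals ran from -1.09 to 0.19 at 3 h, from -0.47 to 0.81 at 6 h and from -0.84 to 0.44 at 9 h. Changes within those bounds are not excluded. Without replicate 2 of full medium the 6 h difference was 0.61. The 9 h difference ran from -0.33 to -0.077 with 1 array left out, the ends being without replicates 2 and 1 of full medium.

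Medium without iron at 9 h gave the highest group mean of IMA2 and its highest single array. The 3 h arrays read 1.32, 1.49 and 1.40, all below the full-medium arrays of that time, and the 6 h arrays 2.11, 1.33 and 1.75. At 9 h they read 3.54, 2.05 and 1.95, a mean of 2.51 ± 0.89 (SD, n = 3). All of these exceeded the full-medium arrays at 9 h, which reached 1.75, but replicates 2 and 3 lay below single arrays of other groups, such as replicate 2 of full medium at 6 h (2.35). Replicate 1 was the highest of all 39 arrays for this gene, with 51.5% of the rows of its own array below it.

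The 9 h difference from full medium was 1.01 (SE 0.31, 95% interval 0.36 to 1.65), a fold of 2.01. It ranked 39th of 28501 rows by unadjusted p (0.00325) but did not pass over all rows (limma adjusted p = 1.00), where 0% of rows were called and 675 had an unadjusted p under 0.05. An exact permutation of 3 against 3 arrays gave 0.1, the smallest p that design allows. Leaving out replicate 1 of the no-iron arrays brought the difference to 0.49. Taken by replicate number it was 1.79, 0.81 and 0.42 for numbers 1, 2 and 3. At 3 and 6 h it was -0.25 and 0.27, neither passing, and with replicate 2 of full medium left out the latter was 0.71. The mean over the 3 times was 0.34 (SE 0.18, unadjusted p = 0.071), which did not pass either, in a comparison that called 0.0105% of rows. That mean was 0.17 with replicate 1 of the no-iron arrays at 9 h left out, and 0.85, -0.17 and 0.33 within numbers 1, 2 and 3.

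**Figure D1:**
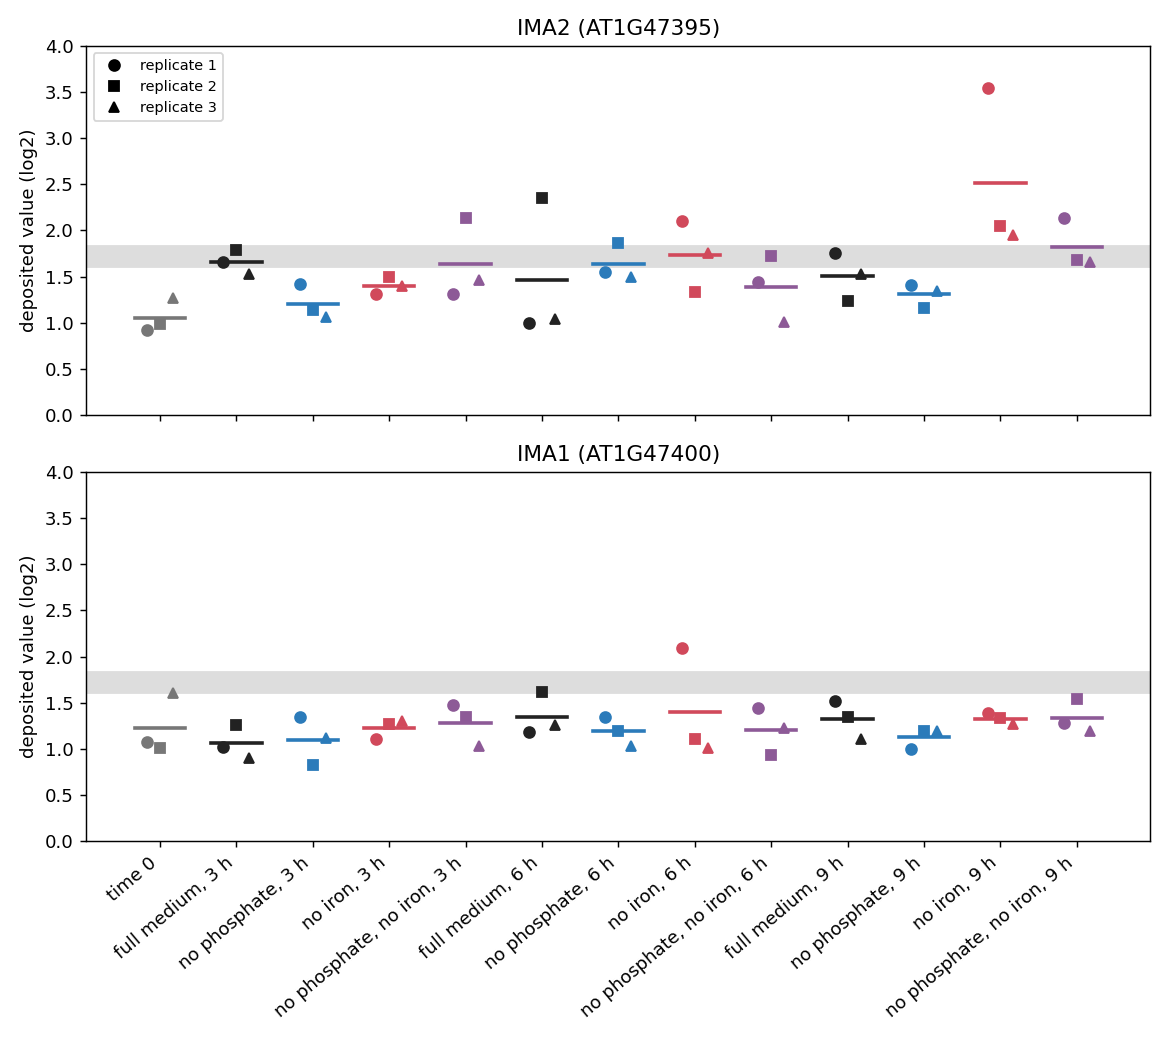
Deposited log2 values of IMA2 (top) and IMA1 (bottom) in all 39 arrays, by group along the horizontal axis. Symbols are single arrays by replicate number, horizontal bars are group means of 3 arrays, and the grey band is the range of the first quartiles of the arrays. IMA2 without iron at 9 h lies between 1.95 and 3.54, and IMA1 exceeds the grey band in 1 array, at 2.09.

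Medium without both nutrients showed IMA2 at intermediate values at 9 h. The arrays read 2.14, 1.68 and 1.66 there, with a mean of 1.83 ± 0.27 (SD, n = 3), against 1.31, 2.13 and 1.46 at 3 h and 1.44, 1.72 and 1.01 at 6 h. The 9 h arrays all exceeded those without phosphate at 9 h, which reached 1.41, a comparison that was not fitted by itself. They overlapped those of full medium. The difference from full medium was 0.32 (SE 0.31, 95% interval -0.32 to 0.96), which did not pass, in a comparison that called 0.00351% of rows. At 3 and 6 h the differences were -0.02 and -0.07, beside 0.0246% and 0% of rows called. The mean over the times was 0.08 (SE 0.18), again with 0.0105% called. Whether the lack of phosphate changed the response to the lack of iron is asked by the interaction term. For IMA2 it was -0.49 at 9 h (SE 0.45, 95% interval -1.40 to 0.42) and -0.11 in the mean over the times, neither of which passed, with 0% of rows called in both. The 9 h interaction was 0.025 with replicate 1 of the no-iron arrays left out.

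The factorial design allows the media with and without iron to be pooled at each time, 6 arrays against 6. At 9 h the arrays without iron ran from 1.66 over a median of 2.0 to 3.54, and those with iron from 1.16 over 1.38 to 1.75. Of the 6 arrays without iron, 4 exceeded every array with iron, a count that was not taken over all rows. The difference was 0.76 (SE 0.22, 95% interval 0.31 to 1.22), 1.70-fold. An exact two-sided permutation test within each phosphate level gave p = 0.005 (0.02 after Benjamini-Hochberg adjustment over the 3 times and their mean), which is the smallest p that its 400 arrangements allow. The test took no account of replicate number, so deviations shared by arrays of 1 number are not allowed for. The adjustment covers the IMA2 tests alone, and the genes and tests were chosen with earlier results of these data known. Without replicate 1 of the no-iron group the difference was 0.51 and the exact permutation p was 0.01.

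Over all rows the same 9 h difference did not pass (limma unadjusted p = 0.00179, adjusted p = 0.852), where 2 rows, 0.00702%, were called. It was positive within each replicate number, at 1.26, 0.66 and 0.37. At 3 and 6 h the pooled differences of IMA2 were 0.09 and 0.01 (SE 0.22 each; exact permutation p = 0.725 and 0.98). The mean over the 3 times was 0.29 (SE 0.13), with a permutation p of 0.0627 from 100000 resamples (0.125 after the same adjustment). In that mean 0.0737% of rows were called, and IMA2 was not (limma adjusted p = 1.00). The iron difference at 9 h exceeded that at 3 h by 0.67 (SE 0.31, 95% interval 0.03 to 1.32), with an unadjusted p of 0.0402 that did not pass over all rows (limma adjusted p = 0.997). It was 0.42 with replicate 1 of the no-iron arrays at 9 h left out, and 1.48, 0.31 and 0.23 within numbers 1, 2 and 3.

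One IMA2 comparison of 25 passed over all rows. Without iron at 9 h it was above time 0 by 1.46 (SE 0.31, 95% interval 0.81 to 2.1), 2.75-fold, with a limma adjusted p of 0.00927. That comparison called 385 rows, 1.35% of the table, and full medium at 9 h itself stood 0.45 above the same time 0 arrays. Leaving out replicate 1 of the no-iron arrays ended the call (0.94, adjusted p = 0.158), as did leaving out replicate 1 of time 0 (1.39, adjusted p = 0.0626). With only those 6 arrays in the model the adjusted p was 0.213, and with replicate numbers 1 and 2 alone it was 0.0647. Within numbers 1, 2 and 3 the difference was 2.62, 1.06 and 0.69. Without both nutrients at 9 h IMA2 was 0.77 above time 0 (SE 0.31, adjusted p = 0.293), in a comparison that called 1.74% of rows. Its 3 arrays there all exceeded time 0, with an exact two-sided permutation p of 0.1, the smallest possible.

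Ordered by group mean, IMA2 was highest without iron at 9 h (2.51), then without both at 9 h (1.83) and without iron at 6 h (1.73). It was lowest without phosphate at 9 h (1.31), without phosphate at 3 h (1.21) and at time 0 (1.06). No 2 neighbours in this order were separated, since the arrays of each group overlapped those of the next. Pooled over iron supply and time, phosphate absent minus present was -0.21 (SE 0.13, adjusted p = 1.00), where 0.0947% of rows were called.

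IMA1 showed no difference that passed. Its 3 arrays without iron at 9 h read 1.38, 1.34 and 1.27, against 1.51, 1.35 and 1.11 in full medium. The difference was 0.00 (SE 0.21, 95% interval -0.42 to 0.43), and the groups overlapped. Its sign turned under quantile normalization and median centring, at -0.01 in both. At 3 and 6 h it was 0.17 and 0.05. With replicate 1 of the no-iron arrays left out the 6 h difference was -0.29, since that array, at 2.09, was the highest of IMA1 while its group mates read 1.11 and 1.00.

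Group means of IMA1 ran from 1.06 in full medium at 3 h to 1.40 without iron at 6 h, and arrays of every neighbouring pair of groups in that order overlapped. Time 0 read 1.07, 1.01 and 1.61, and the full-medium arrays 1.02, 1.26 and 0.90 at 3 h and 1.18, 1.61 and 1.25 at 6 h. Over the 9 deprivation comparisons and their 3 means, the differences lay between -0.20 and 0.22. Their 95% intervals lay between -0.62 and 0.64. Of 25 IMA1 comparisons 0 passed in limma and 0 had an unadjusted p under 0.05, the lowest being 0.221. For IMA2 6 of 25 had one, and 1 passed. Apart from without both at 9 h against time 0, each of these included the no-iron arrays at 9 h, with the array at 3.54. They are therefore not independent. In the same comparisons 675 to 3271 of all 28501 rows had an unadjusted p under 0.05. Pooled over phosphate, iron absent minus present at 9 h was 0.11 for IMA1 (SE 0.15; exact permutation p = 0.26).

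**Figure D2:**
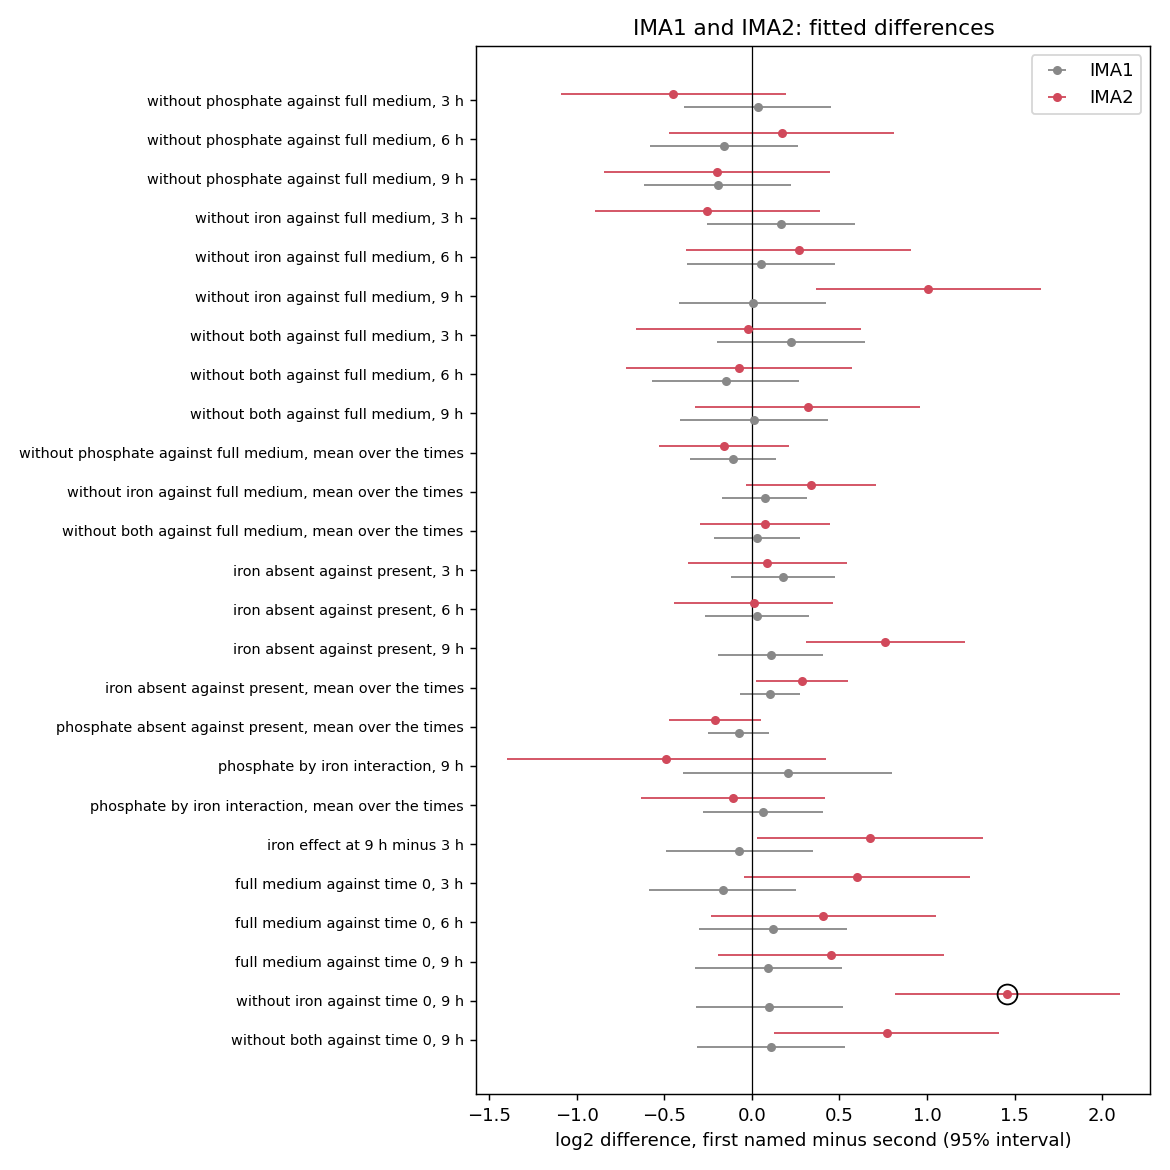
Fitted log2 differences of IMA1 (grey) and IMA2 (red) in all 25 comparisons, first-named condition minus second, with 95% intervals from the limma fit of 39 arrays. The circled point is the 1 comparison that passed over all rows, IMA2 without iron at 9 h against time 0, at 1.46.

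Set against each other in the same arrays, the iron difference at 9 h was larger for IMA2 than for IMA1 by 0.66. The exact two-sided permutation p of that gap, a comparison added after the values were seen, was 0.02, and 0.08 after Benjamini-Hochberg adjustment over the 3 times and their mean, so it did not pass. At 3 and 6 h the gap was -0.09 and -0.02. Across the 39 arrays, deviations of the 2 genes from their group means had a Pearson correlation of 0.36 (permutation p = 0.0386) and a Spearman correlation of 0.35 (p = 0.0604), both 0.0604 after adjustment over the pair of tests. Without the 2 arrays farthest from the median IMA1 deviation, r was 0.34 (permutation p = 0.0601). Within replicate numbers 1, 2 and 3 it was 0.30, 0.36 and 0.23 over 13 arrays each. The coding sequences of the peptide genes are related, and whether their probes share signal was not tested.

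The rest of the peptide family was measured in part. IMA3 (AT2G30766) shared both of its rows with the gene AT2G30760, so its signal cannot be told apart from that gene's. These rows had means of 1.64 and 1.45 over the 39 arrays, and their iron differences at 9 h were 0.06 (SE 0.12) and 0.02 (SE 0.10). IMA4 (AT1G07367) was on no row with a gene named.

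None of the measured genes that act with the peptides passed at 9 h. The list of bHLH Ib, PYE and related genes had 9 of 21 members on a row of their own, and 0 were called for iron absent against present at 9 h, 0 with an unadjusted p under 0.05. Over all 28501 rows 2 were called, 0.00702%, and 1123 had an unadjusted p under 0.05, so a count of 0 among 9 is near the background. Of the 9, 5 were above 0 and 4 below, with a median of 0.00 beside 0.01 over all rows. BTSL1 and BTSL2, the ligases that the peptides bind, stood at 0.04 (SE 0.23) and -0.06 (SE 0.14). BTS was on no row naming it alone, and neither were BHLH38, BHLH39 and BHLH100.

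Of the bHLH transcription factors in the same list, ILR3 stood at -0.07, BHLH34 at 0.16, BHLH104 at 0.00 and BHLH115 at 0.03 (SE 0.09 to 0.14). URI (bHLH121), their partner, was at -0.21 (SE 0.12, unadjusted p = 0.083). BHLH101, one of the factors switched on in iron deficiency, was at 0.16 (SE 0.10). At 3 and 6 h it was at -0.21 and 0.27 (limma unadjusted p = 0.0466 and 0.0139). In those comparisons 1488 and 881 of all rows had an unadjusted p under 0.05. None of the BHLH101 differences passed over all rows. The BHLH101 row was also dim, with a mean of 1.44. PYE, which represses iron storage and transport genes, was at -0.11 (SE 0.14).

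Downstream, 2 of 14 genes of the FIT list had a row of their own, and FIT, IRT1 and FRO2 had none. S8H, which makes the iron-binding coumarin fraxetin, stood at 0.10 (SE 0.17), and BGLU42, a glucosidase that helps release coumarins, at -0.06 (SE 0.13). Of the 7 iron storage genes, such as ferritins, none had a row naming it alone.

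**Figure D3:**
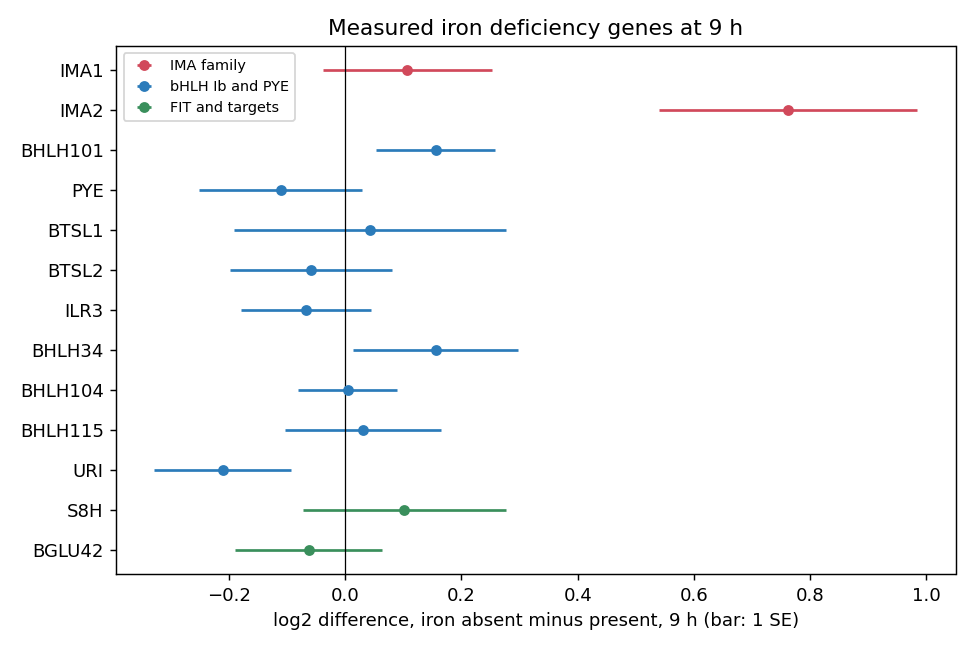
Log2 difference at 9 h of each gene of the iron lists with a row of its own, iron absent minus present, 6 arrays against 6, with 1 SE. BHLH38, BHLH39, BHLH100, FIT, IRT1 and FRO2 had no such row and are not shown. IMA2 stands at 0.76, and the other 12 genes lie between -0.21 and 0.16.

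None of the tissue markers passed in these comparisons. Without iron against full medium at 9 h, the comparison behind the highest IMA2 values, RCA differed by -0.40 (SE 0.69), LHCB4.1 by -0.51 (SE 0.67) and EXP7 by 0.44 (SE 0.37), none of which passed. In the array with the highest IMA2 value RCA was 5.69, against 6.58 and 6.88 in its group mates. LHCB4.1 was 4.44 there against 4.35 and 5.19, and EXP7 was 5.54 against 5.57 and 4.90. These mates carry other replicate numbers, and in every group the array of number 3 was the highest for both RCA and LHCB4.1. Among the arrays of number 3, the one without iron at 9 h was the lowest for both, at 6.88 and 5.19. The part of the tissue markers in the IMA2 result was not tested.

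None of the nearest genes in the annotation with a row of their own passed. Of the nearest 3 genes with a row on each side, AT1G47390, next to IMA2, stood at 0.08 (SE 0.08) for iron absent against present at 9 h. AT1G47389 was at -0.01 and AT1G47380 at 0.13. Beyond IMA1, AT1G47410 was at 0.16, AT1G47450 at 0.02 and AT1G47470 at 0.20. Between IMA1 and these lie 5, 10 and 13 genes, and the genes closest to IMA1 on that side had no row naming them alone. Without iron against full medium at 9 h AT1G47380 was at 0.22 (SE 0.19) and the other neighbours between -0.01 and 0.14.

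The gene whose means over the 13 groups followed those of IMA2 most closely was AT4G31330, with a Pearson correlation of 0.88, ahead of AT5G33300 (0.86) and AT2G40010 (0.85) among 16560 genes. Over the 39 single arrays these were 0.49, 0.55 and 0.52. All of these values share the same arrays, and with 16560 candidates high values arise by selection. AT4G31330 stood at 4.20 ± 0.66 (SD, n = 3) without iron at 9 h against 3.15 ± 0.40 in full medium, a difference of 1.04 (SE 0.32), and at 3.25 ± 0.45 without both. Its difference from time 0 was 1.44 (SE 0.32). These values are a description, since the gene was picked for the likeness of its group means.

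For IMA1 the closest were AT1G03220 (0.85), AT1G33420 (0.85) and AT3G06920 (0.82), and over single arrays 0.25, 0.14 and 0.48. IMA1 and IMA2 had a correlation of 0.44 over the 13 group means. That placed IMA1 at rank 1515 for IMA2.

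**Figure D4:**
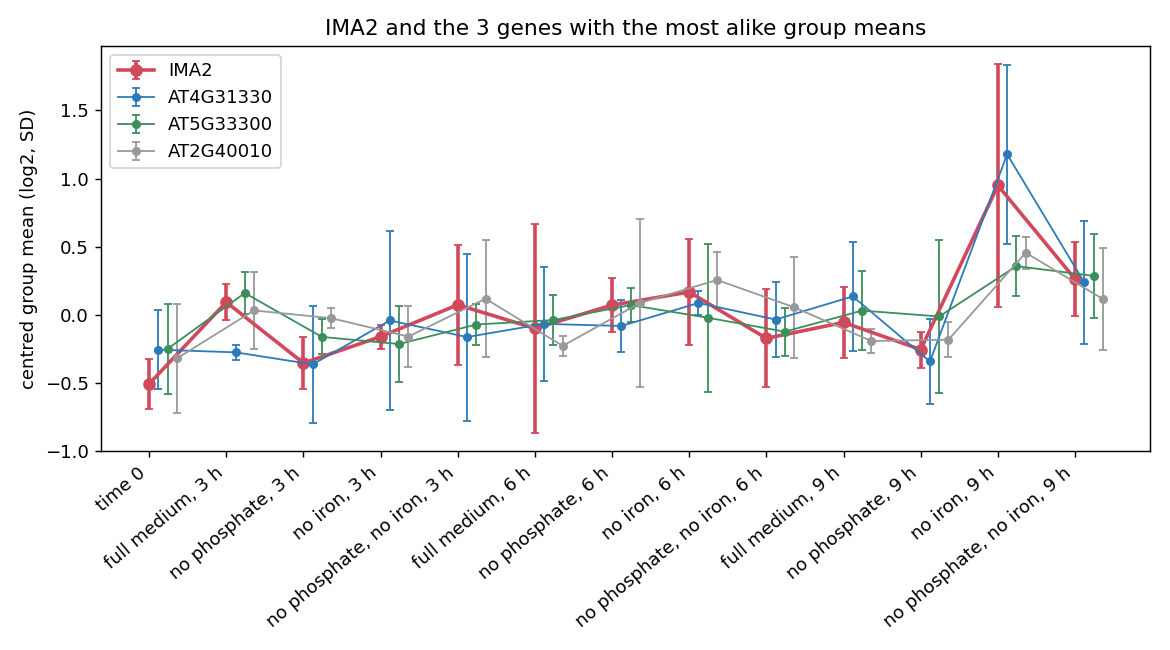
Group means of IMA2 and of the 3 genes with the most alike means, each centred on its own mean over the 13 groups, in log2 units with the SD of 3 arrays. IMA2 and AT4G31330 reach their highest mean without iron at 9 h, at 2.51 and 4.20 before centring.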

How the data were processed

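Root RNA was measured on 39 whole-transcript arrays in 13 groups of 3. The deposited values are 1 log2 value per row and array, as the authors deposited it. The submitters' processing notes list GCRMA and the Affymetrix programs Expression Console and Transcriptome Analysis Console, without saying which step each did. Their versions are not given in the sources used here. How a background correction by probe sequence, as in GCRMA, acted on these dim rows was not tested. Precision is limited by the number of arrays.

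GEO's platform annotation gave the gene of a row, and 16601 of 16746 1-gene rows were matched to RefSeq (TAIR10.1, for names and gene order only). All 28501 rows entered 1 fit with a mean per group (limma 3.58.1, R 4.3.3), with Benjamini-Hochberg adjustment over all rows for each comparison and calls at an adjusted p under 0.05. The fit was tested on simulated data. Permutation tests (numpy 2.4.6) were two-sided.

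The members, gene lists and tests were chosen with earlier results of these data known. Genes alike in pattern were the 3 with the highest correlation over the 13 group means. Of 60 list entries, 16 had a row of their own. Alternatives were quantile normalization, median centring, a filter on dim rows, the compared groups alone, the replicate block, an intensity trend, each array left out in turn and, chosen after seeing the data, replicate numbers 1 and 2 alone.

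Deviations from group means correlated at 0.259 between arrays that shared a replicate number across groups and at -0.128 between those that did not. The negative value largely follows from the positive one, because the deviations within a group cancel out, and is no separate observation. Every pair exceeded 0.1 in 7 of 14 comparisons of 2 groups, among them both absent against full medium and against time 0 at 9 h. Without iron at 9 h did not meet this. Its lowest correlation was 0.048 against full medium (number 1) and -0.042 against time 0 (number 2).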

Additional observations from a re-analysis of the deposited data

How the results depend on the processing

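IMA2 without iron against full medium at 9 h stayed between 0.49 and 1.30 and iron absent against present at 9 h between 0.51 and 0.96 under every alternative run, and neither passed over all rows in any. The 1 call, IMA2 without iron at 9 h against time 0 (1.46), ended with the compared groups alone (1.46, adjusted p = 0.213), where 164 rows were called in place of 385, and with replicate numbers 1 and 2 alone (1.84, adjusted p = 0.0647), where 167 were. Over all alternatives its adjusted p ran from 0.00473 to 0.213. With the replicate block it was 0.00549 and 568 rows were called, and the block changed no other call of these genes. A filter on dim rows gave no value, since both genes lie under it. The cause of these changes was not tested.

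None of the values whose sign turned passed in any setting. For IMA1 at 9 h, without iron against full medium was -0.010 under quantile normalization, -0.011 with median centring and -0.070 with numbers 1 and 2 alone, and without both was -0.029, -0.0031 and -0.021. With numbers 1 and 2 alone, IMA1 turned without phosphate at 3 h (-0.056) and in full medium at 3 h against time 0 (0.10). IMA2 turned in the same setting without both at 3 h (0.0020) and for iron at 6 h (-0.038), and 0 rows were called for iron at 9 h in place of 2. The correlation of the genes across arrays was 0.34 with median centring (permutation p = 0.0517).

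With 1 array left out, the following ranges include a turned sign or a lost call. Against time 0, IMA1 in full medium ranged from -0.28 to 0.023 at 3 h, from -0.0099 to 0.31 at 6 h and from -0.017 to 0.29 at 9 h, and at 9 h from -0.012 to 0.29 without iron and from -0.0029 to 0.30 without both. IMA2 ranged from -0.035 to 0.64 in full medium at 6 h and from 0.94 to 1.74 without iron at 9 h. Against full medium, IMA1 ranged from -0.092 to 0.17 without phosphate at 3 h, from -0.29 to 0.25 without iron at 6 h, from -0.10 to 0.10 without iron at 9 h and from -0.093 to 0.11 without both at 9 h. Its means over the times ranged from -0.041 to 0.14 without iron and from -0.011 to 0.073 without both. IMA2 ranged from -0.062 to 0.61 without phosphate at 6 h, and without both from -0.27 to 0.14 at 3 h, from -0.31 to 0.37 at 6 h and from -0.0080 to 0.22 in the mean. For iron absent against present, IMA2 ranged from -0.037 to 0.17 at 3 h and from -0.10 to 0.23 at 6 h, and IMA1 from -0.14 to 0.13 at 6 h. The interaction of IMA2 ranged from -0.77 to 0.025 at 9 h and from -0.25 to 0.065 in the mean, and that of IMA1 from -0.0034 to 0.18 in the mean. Rows called ranged from 0 to 1 without iron against full medium at 9 h, from 0 to 4 for iron at 9 h and from 205 to 426 without iron at 9 h against time 0.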
